A study of Homo sapiens with 12 samples.

Results

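The LRRC8 genes encode the subunits of the volume-regulated anion channel (VRAC), and all 5 of them (LRRC8A, LRRC8B, LRRC8C, LRRC8D and LRRC8E) were taken from the deposited table of 58302 genes by gene name. VRAC opens when a cell swells and lets chloride and small organic osmolytes leave, so that water follows and the volume returns. LRRC8A is the obligatory subunit and assembles with the others into mixed channels, and the partners set what passes: LRRC8D is known for taurine and other uncharged osmolytes and for platinum drugs, and LRRC8C and LRRC8E for cyclic dinucleotides. LRRC8B is the least understood partner. The table holds RNA-sequencing values of 3 established human prostate cell lines with 4 libraries each: BPH-1, a benign prostate epithelial line, and the prostate cancer (PCa) lines DU145 and PC3. All 3 were labelled wild type with no treatment named, and grown in the same serum-containing medium with antibiotics. The labels do not say whether the libraries of a line came from separate cultures, so the p-values measure the spread between these libraries, which may be technical. The lines were compared gene by gene to ask how the benign line differs from the PCa lines, and DU145 was also compared with PC3.

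Values are FPKM, the reads counted on a gene scaled to the gene's length and to the total counted in the library. Between 12950667 and 16309564 reads were recovered per library from the steps between low values. The lines carried the markers of their labels in part. KRT5, KRT14 and TP63 of basal prostate epithelium were high in BPH-1 (means of 147, 203 and 13.0 FPKM) and at most 0.499 FPKM in the PCa lines. KRT8 and KRT18 were at least 14.7 FPKM everywhere. The epithelial adhesion genes EPCAM and CDH1 had means of 60.8 and 28.4 FPKM in BPH-1 and of 9.1 and 0.786 in PC3. They were at most 0.573 and 0.297 FPKM in DU145. KLK3 had 0 reads in all 12 libraries, and CTNNA1 was at most 0.0719 FPKM in PC3. Some markers differed among the DU145 libraries: PTPRC was 1.35 and 1.25 FPKM in replicates 1 and 2 and 0 in replicates 3 and 4, PECAM1 was 0.198 and 0.224 against 0, DCN was 0 against 0.373 and 0.214, and COL1A2 was 0 against 0.133 and 0.135. COL1A1 showed no such split (0.433, 0.354, 0.524 and 0.442), and over all genes replicates 1 and 3 and replicates 2 and 4 were nearest (chi-square per gene 37.2 and 23.7, against 130 for replicates 1 and 2 and 180 for 3 and 4). In BPH-1 PTPRC was between 1.15 and 1.54 FPKM, PECAM1 at most 0.179 and COL1A1 between 1.71 and 3.09. In PC3 PTPRC was 0, PECAM1 between 1.19 and 2.28 and COL1A1 between 2.99 and 3.84. COL1A2 was at most 0.0119 and DCN 0 in both lines. The part of these markers in the members' levels was not tested. In a bulk sample fewer cells that express a gene and less RNA per cell cannot be told apart.

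LRRC8B (ENSG00000197147), LRRC8C (ENSG00000171488) and LRRC8D (ENSG00000171492) lie next to each other on the plus strand of chromosome 1 (GRCh38, GENCODE 29), at 89524836 to 89597864, 89633072 to 89769903 and 89821014 to 89936611, with gaps of 35207 and 51110 bases. LRRC8A (ENSG00000136802) lies on chromosome 9 at 128882112 to 128918039 and LRRC8E (ENSG00000171017) on chromosome 19 at 7888505 to 7902021, both on the plus strand. The genes differ in base composition. The GC content of the longest transcript, used for all genes here, was 39.0% for LRRC8B, 38.1% for LRRC8C and 42.8% for LRRC8D. It was 57.6% for LRRC8A and 57.5% for LRRC8E. On the deposited values the 3 genes of chromosome 1 were the members called lower in the PCa lines, though not all of these calls held (below). The bases before their start sites are therefore shown 5′ to 3′ from RefSeq (GRCh38.p14, plus strand). The motifs searched are in capitals (a motif of the minus strand stands as its reverse complement). The windows were chr1:89524579-89524828, chr1:89632870-89633071 and chr1:89820782-89821013, the latter 2 being the first 202 and 232 of 250 bases, cut at the GENCODE start.
LRRC8B: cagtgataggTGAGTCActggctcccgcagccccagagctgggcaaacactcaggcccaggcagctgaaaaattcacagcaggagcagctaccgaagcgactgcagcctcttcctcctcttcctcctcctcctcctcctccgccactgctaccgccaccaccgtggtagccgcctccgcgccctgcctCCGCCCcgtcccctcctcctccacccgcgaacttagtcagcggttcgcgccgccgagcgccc
LRRC8C: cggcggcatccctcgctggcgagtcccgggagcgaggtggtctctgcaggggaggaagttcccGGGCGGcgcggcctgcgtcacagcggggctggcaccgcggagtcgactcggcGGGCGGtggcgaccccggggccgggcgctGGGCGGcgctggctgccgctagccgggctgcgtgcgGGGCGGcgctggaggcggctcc
LRRC8D: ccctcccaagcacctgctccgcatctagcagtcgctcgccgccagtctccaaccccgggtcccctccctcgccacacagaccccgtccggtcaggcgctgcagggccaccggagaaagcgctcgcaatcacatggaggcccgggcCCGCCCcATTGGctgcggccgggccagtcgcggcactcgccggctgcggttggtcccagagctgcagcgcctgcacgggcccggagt
Short motifs were searched on both strands of the 250 bases before the RefSeq start site of all 5 genes. The GC box GGGCGG was found in all 5 windows (4 times in LRRC8C, 3 overlapping times in LRRC8E, 2 in LRRC8A and 1 each in LRRC8B and LRRC8D) and in 42.6% of all 35116 windows. LRRC8B held the AP-1 motif TGACTCA on the minus strand (4.2% of all windows), and LRRC8D held CCAAT on the minus strand (32.0%). TGGAAA, the core of the tonicity element, was in none of the 5 and in 18.0% of all windows, TATAAA in none and in 10.7%, and CACGTG in none and in 6.34%. A GC content of 66.8% to 80.8% in the 5 windows stood against a median of 58% over all windows.

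LRRC8A was the most abundant subunit gene in every library, and no difference between lines passed the test on the deposited values. It had an FPKM of 11.4, 13.7, 13.0 and 14.4 in BPH-1 replicates 1 to 4, of 12.5, 9.01, 14.5 and 10.8 in DU145, and of 10.1, 10.4, 11.4 and 12.9 in PC3. The libraries of the 3 lines overlapped. Means were 13.1 ± 1.29 (SD, n = 4) in BPH-1, 11.7 ± 2.34 (SD, n = 4) in DU145 and 11.2 ± 1.30 (SD, n = 4) in PC3, from 1288 to 2226 reads per library. The log2 fold change, here and below on the log2(FPKM + 1) scale, was -0.17 for DU145 against BPH-1 (95% confidence interval -0.56 to 0.22, limma adjusted p = 0.41) and -0.21 for PC3 against BPH-1 (-0.48 to 0.05, adjusted p = 0.134). The median of all genes was -0.13 in the latter comparison. Both became called lower when the trend of FPKM with gene GC content was divided out of each library, with -0.66 (adjusted p = 0.000362) in DU145 and -0.55 (adjusted p = 0.000414) in PC3. With the trend divided out, LRRC8A was 16.1 ± 1.05 (SD, n = 4) in BPH-1, 9.82 ± 0.472 (SD, n = 4) in DU145 and 10.7 ± 0.210 (SD, n = 4) in PC3, and BPH-1 overlapped with neither. Without PC3 replicate 4 the difference of PC3 was -0.28 (adjusted p = 0.0405).

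**Figure D1:**
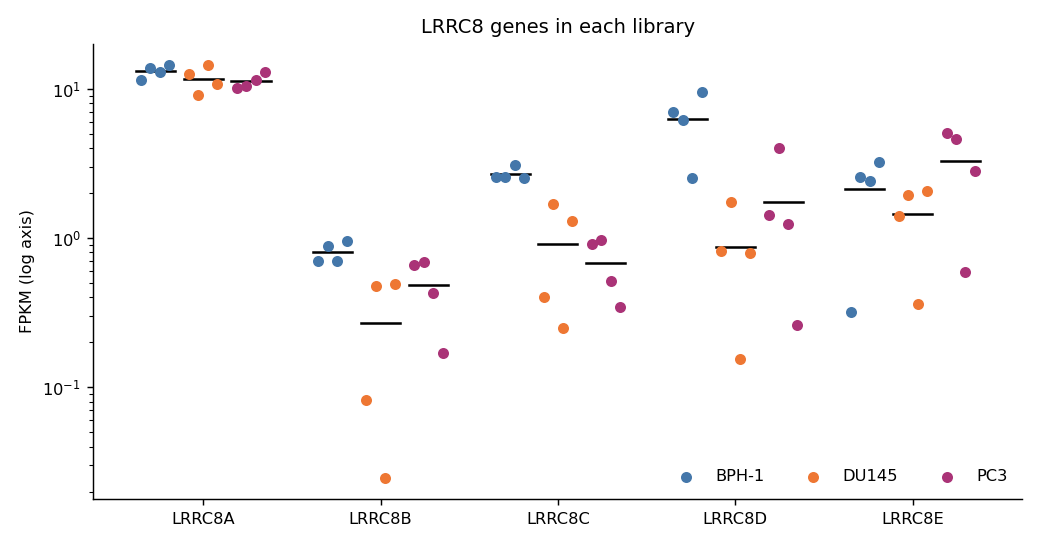
FPKM (log axis) of each LRRC8 gene in the 12 libraries; points are libraries, from replicate 1 at the left to 4, and black lines are means of 4 libraries. LRRC8A lies between 9.01 and 14.5 in all lines, and LRRC8B and LRRC8C of BPH-1 lie above both PCa lines. LRRC8D and LRRC8E spread widely within lines, as do LRRC8B and LRRC8C within DU145.

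On the deposited values, LRRC8C and LRRC8B were lower in both PCa lines than in BPH-1. LRRC8C had an FPKM of 2.57, 2.56, 3.07 and 2.51 in BPH-1, of 0.401, 1.68, 0.248 and 1.30 in DU145, and of 0.906, 0.971, 0.516 and 0.347 in PC3. Each of the 4 BPH-1 libraries was above every PCa library. The mean of 2.68 ± 0.261 (SD, n = 4) in BPH-1 was 2.96 times that in DU145 (0.906 ± 0.692) and 3.91 times that in PC3 (0.685 ± 0.302), with log2 fold changes of -1.02 (standard error 0.24, limma adjusted p = 0.00424) and -1.14 (standard error 0.14, adjusted p = 7.41e-05). LRRC8B was low in all lines, with 0.702, 0.886, 0.703 and 0.952 FPKM in BPH-1, 0.0820, 0.474, 0.0246 and 0.492 in DU145, and 0.660, 0.686, 0.431 and 0.169 in PC3. No PCa library reached the lowest BPH-1 library, although the highest of PC3 came close. Only 8 reads stood behind the lowest DU145 value, against at least 228 in every BPH-1 library. LRRC8B passed the filter on low values in the comparison with DU145 only through BPH-1, where it was higher, and so its difference of -0.53 there (standard error 0.13, adjusted p = 0.00569) is no independent support for a lower level. It differed by -0.30 in PC3 (standard error 0.12, adjusted p = 0.0492), a call that was lost without any one of BPH-1 replicates 1, 2, 3 and 4 or PC3 replicates 3 and 4 (-0.33 to -0.19, adjusted p between 0.0614 and 0.117) and by voom on the recovered reads (adjusted p = 0.0664).

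Both differences moved with the GC trend of the libraries. Within DU145, LRRC8B and LRRC8C were lower in replicates 1 and 3 than in replicates 2 and 4, and within PC3 both were lowest in replicate 4. The median deviation from the line mean of the 2507 genes with a GC content under 40% was -0.17, 0.30, -0.32 and 0.17 on the log2(FPKM + 1) scale in DU145 replicates 1 to 4 and 0.19, 0.12, -0.07 and -0.24 in PC3, and between -0.03 and 0.04 in BPH-1. With the trend divided out, LRRC8C was 1.15 ± 0.0806 (SD, n = 4) FPKM in BPH-1, 1.13 ± 0.310 in DU145 and 0.919 ± 0.0926 in PC3, and its calls ended (-0.03, adjusted p = 0.847, in DU145 and -0.16, adjusted p = 0.0772, in PC3). LRRC8B then gave -0.10 in DU145 (adjusted p = 0.396) and turned to 0.23 in PC3 (adjusted p = 0.0168). This step would also take out a true difference between lines in genes of one GC class, and the part of the trend in the deposited difference was not tested. DU145 replicates 1 and 3, in which both genes were lowest, were also left out, a choice made after seeing the data. The difference of DU145 from BPH-1 then moved from -1.02 to -0.57 for LRRC8C (limma adjusted p = 0.0081). For LRRC8B it moved from -0.53 to -0.29 (adjusted p = 0.0294). The part of the trend in these values was not tested either.

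**Figure D2:**
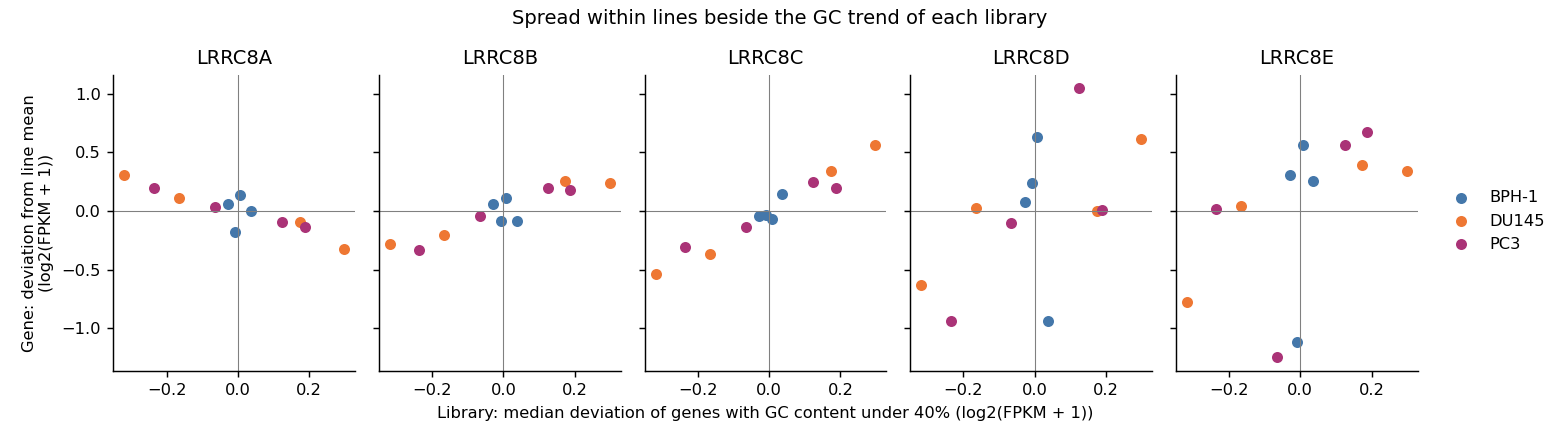
Deviation of each LRRC8 gene from its line mean (y axis) against the median deviation of genes with a GC content under 40% in the same library (x axis), both on the log2(FPKM + 1) scale; each point is 1 of 12 libraries. In DU145 and PC3, LRRC8B and LRRC8C lie lowest in the libraries at the left (DU145 replicates 1 and 3, PC3 replicate 4), and LRRC8A lies highest there.

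LRRC8D showed the largest difference of the 5 members between BPH-1 and DU145. It had an FPKM of 7.01, 6.17, 2.54 and 9.48 in BPH-1, of 0.819, 1.73, 0.156 and 0.789 in DU145, and of 1.43, 3.99, 1.25 and 0.260 in PC3. All DU145 libraries were below all BPH-1 libraries, while PC3 replicate 2 was above BPH-1 replicate 3. The BPH-1 mean of 6.30 ± 2.88 (SD, n = 4) was 7.2 times that of DU145 (0.875 ± 0.650) and 3.64 times that of PC3 (1.73 ± 1.59). The log2 fold change was -1.92 in DU145 (95% confidence interval -2.71 to -1.14, limma adjusted p = 0.000956) and -1.49 in PC3 (-2.46 to -0.51, adjusted p = 0.0124). With the GC trend divided out, LRRC8D was the only one of the 3 lower members whose call in DU145 held (-1.34, adjusted p = 0.00529), and its call in PC3 ended (-0.92, adjusted p = 0.0648). The exact permutation test, two-sided, gave p = 0.0286 for DU145, the smallest that 4 against 4 libraries allow, and p = 0.0571 for PC3.

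LRRC8E was the partner with the highest mean in PC3, but its libraries overlapped in all comparisons and none was called. It had an FPKM of 0.317, 2.54, 2.42 and 3.23 in BPH-1, of 1.41, 1.94, 0.359 and 2.06 in DU145, and of 5.03, 4.57, 0.591 and 2.83 in PC3. In each line 1 library stood far below the rest, replicate 1 in BPH-1 (46 reads) and replicate 3 in DU145 (52 reads) and PC3 (77 reads). The log2 fold change was -0.30 for DU145 against BPH-1 (95% confidence interval -1.15 to 0.55, limma adjusted p = 0.511) and 0.40 for PC3 against BPH-1 (-0.67 to 1.47, adjusted p = 0.477). An annotated antisense gene, AC010336.1, shares 3218 exon bases with LRRC8E and had 23 to 47 reads in DU145, 8 to 16 in PC3 and 6 to 8 in BPH-1. Whether the counting used strand is not stated, so reads of the pair cannot be told apart. Overlaps of the other members were smaller: LRRC8C-DT shares 246 exon bases with LRRC8B (at most 15 reads), AC093423.3 shares 325 with LRRC8C and 329 with LRRC8D (at most 7 reads), and KYAT1 shares 0 with LRRC8A.

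The spread of LRRC8D and LRRC8E between libraries of 1 line was large beside other genes in BPH-1 and PC3, and less so in DU145. In BPH-1 their SD on the log2(FPKM + 1) scale was 0.67 and 0.76, larger than that of 98.2% and 98.7% of 17632 genes, whose median SD was 0.14. In PC3 it was 0.81 and 0.88, larger than that of 98.6% and 99.0% of genes (median 0.17), and in DU145 0.51 and 0.54, larger than that of 83.9% and 85.7% (median 0.26). LRRC8A, LRRC8B and LRRC8C of BPH-1 had SDs of 0.14, 0.10 and 0.10, larger than that of 45.9%, 31.2% and 29.9% of genes. In DU145 LRRC8C spread as widely as LRRC8D and LRRC8E, with an SD of 0.536, larger than that of 85.5% of genes. LRRC8A and LRRC8B had SDs of 0.27 and 0.287 there (51% and 55% of genes). In PC3 the SDs of LRRC8A, LRRC8B and LRRC8C were 0.15, 0.245 and 0.264 (44.2%, 68.8% and 72.3% of genes). LRRC8D was lowest in BPH-1 replicate 3, DU145 replicate 3 and PC3 replicate 4, and LRRC8E in BPH-1 replicate 1, DU145 replicate 3 and PC3 replicate 3, so that the library lowest for both was DU145 replicate 3. In BPH-1 the median deviation of genes of low GC content, given above, was between -0.03 and 0.04.

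Counted over the members, 3 of 5 were called lower and 0 higher in PC3 against BPH-1, where 67.6% of 16407 genes tested were called (40.4% lower and 27.1% higher). In DU145 against BPH-1, 3 of 5 were called lower and 0 higher, beside 62.7% of 17017 genes called (32.4% lower and 30.3% higher). The libraries did not overlap for 2 members in PC3 and 3 in DU145, beside 64.4% and 59.5% of all genes. The 2 comparisons share the BPH-1 libraries, and counted in either direction the members' share of calls was near that of all genes. All 5 members were tested in all 3 comparisons, but LRRC8B met the read minimum in only 3 of 4 DU145 libraries and so passed the filter on low values only through BPH-1 or PC3 in the comparisons with DU145. Among the 4 members that passed in both lines, 2 were called lower and 0 higher in DU145 against BPH-1. With the GC trend divided out, 1 member was called lower (LRRC8A) and 1 higher (LRRC8B) in PC3 and 2 lower (LRRC8A and LRRC8D) in DU145, beside 63.9% and 63.1% of genes called.

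PC3 and DU145 did not differ detectably in any member. By limma 0 of 5 were called and 0 had an unadjusted p under 0.05, beside 48.3% of 16421 genes called, and voom on the recovered reads and the exact permutation test also called 0. All 5 members overlapped between the lines, against 46.5% of genes that did not. The log2 fold changes of PC3 against DU145 were -0.04 for LRRC8A (95% confidence interval -0.42 to 0.33), 0.24 for LRRC8B (-0.13 to 0.60), -0.12 for LRRC8C (-0.70 to 0.45), 0.43 for LRRC8D (-0.47 to 1.34) and 0.70 for LRRC8E (-0.29 to 1.69). Differences of up to 1.34 in LRRC8D and 1.69 in LRRC8E therefore lay within their intervals. LRRC8E became called higher in PC3 without PC3 replicate 3 (1.12, adjusted p = 0.0241), the library in which it was lowest, and LRRC8B, which passed the filter only through PC3, with the GC trend divided out (0.33, adjusted p = 0.0288). LRRC8C became called lower in PC3 (-0.47, adjusted p = 0.0426) without DU145 replicates 1 and 3 and PC3 replicate 4. With only DU145 replicates 1 and 2 or only replicates 3 and 4, LRRC8C and LRRC8D were called lower than in BPH-1 in both cases. LRRC8D was at -1.61 in replicates 1 and 2 and -2.24 in replicates 3 and 4 (limma adjusted p = 0.0134 and 0.00364). These pairs were chosen after seeing the data, and the part of the markers in these levels was not tested.

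**Figure D3:**
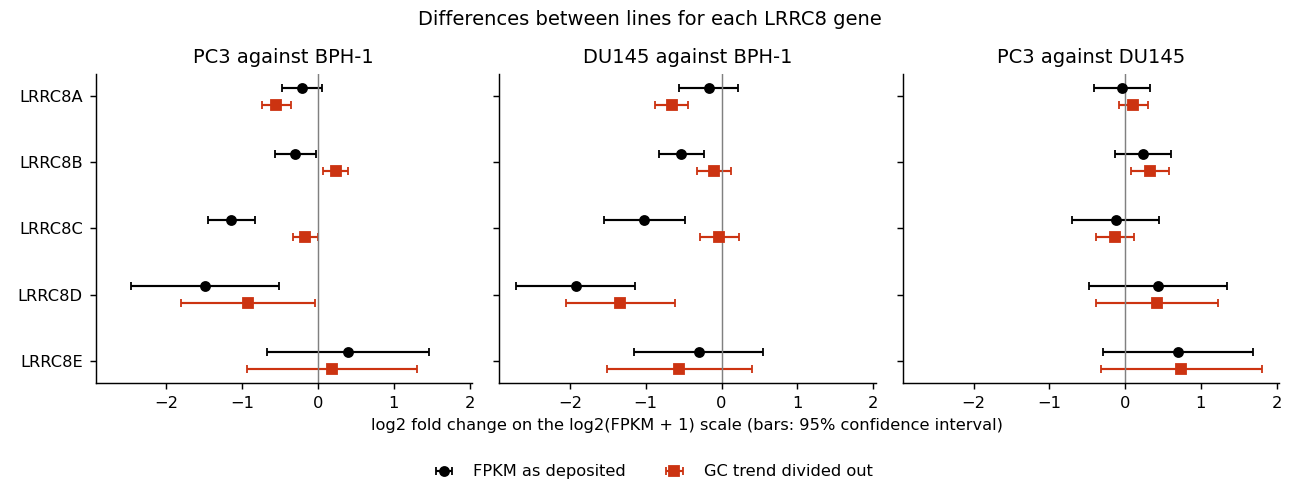
Log2 fold change with its 95% confidence interval for each LRRC8 gene in the 3 comparisons, on FPKM as deposited (black circles) and with the GC trend of each library divided out (red squares). LRRC8D lies below 0 against BPH-1 in both forms, LRRC8C moves from -1.02 to -0.03 in DU145, and LRRC8A moves away from 0 against BPH-1.

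The summed level of the 5 genes was 25.0 ± 4.15 (SD, n = 4) FPKM in BPH-1, 15.2 ± 0.237 in DU145 and 17.4 ± 2.68 in PC3. The sum was 22.0, 25.8, 21.8 and 30.6 in BPH-1 and between 14.2 and 20.6 in the 8 PCa libraries, so BPH-1 did not overlap with either PCa line. LRRC8A made up 51.8%, 52.9%, 59.9% and 47.2% of it in BPH-1, 82.2%, 60.7%, 94.8% and 69.9% in DU145, and 55.6%, 50.4%, 80.4% and 78.2% in PC3. The DU145 libraries all lay above the BPH-1 libraries in this share, and the PC3 libraries did not. The share of LRRC8D was 24.6% ± 9.34 (SD, n = 4) in BPH-1, 5.81% ± 4.40 in DU145 and 9.40% ± 7.38 in PC3. LRRC8E had the second highest mean share in the PCa lines, with 9.53% ± 5.14 in DU145 and 17.8% ± 10.1 in PC3, against 8.25% ± 4.57 in BPH-1. LRRC8C held 11.0% ± 2.52 in BPH-1, 6.0% ± 4.64 in DU145 and 3.86% ± 1.32 in PC3, and LRRC8B 3.24% ± 0.137, 1.77% ± 1.65 and 2.76% ± 1.19.

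Because every member's share depends on the others, the 15 differences in share were tested together with two-sided exact permutation tests. None passed the adjusted threshold. As 4 against 4 libraries cannot give an exact p under 0.0286, at least 9 of the 15 differences had to reach that value for any to pass, so this outcome says little about the shares. The smallest adjusted p was 0.214, reached by LRRC8A in DU145 against BPH-1 (24.0 percentage points higher, exact p = 0.0286), by LRRC8C in PC3 against BPH-1 (-7.12 points, exact p = 0.0286), and by LRRC8D in PC3 and DU145 (-15.2 and -18.8 points, exact p = 0.0571 each). The partners summed to 0.903 ± 0.185 (SD, n = 4) times LRRC8A in BPH-1, 0.338 ± 0.258 in DU145 and 0.576 ± 0.372 in PC3. On the log2 scale this ratio was lower in DU145 than in BPH-1 by -1.89, with no overlap (exact p = 0.0286, adjusted over 3 comparisons 0.0857). With only 1 of 3 comparisons at the smallest exact p none could pass after adjustment, so the missed threshold says little about the ratio. The log2 difference was -1.18 without DU145 replicate 3. The lines overlapped with merged exons (-1.90, exact p = 0.0571) and with the GC trend divided out (-0.54, exact p = 0.286). With the GC trend divided out the LRRC8A share was 66.6% in BPH-1, 73.4% in DU145 and 63.6% in PC3, and DU145 overlapped with BPH-1 (exact p = 0.286). The LRRC8C difference from BPH-1 then turned to 0.615 points in PC3 (exact p = 0.257) and 3.41 in DU145 (no overlap, exact p = 0.0286). That of LRRC8D moved to -7.00 points in PC3 and -9.87 in DU145 (exact p = 0.229 and 0.0857).

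**Figure D4:**
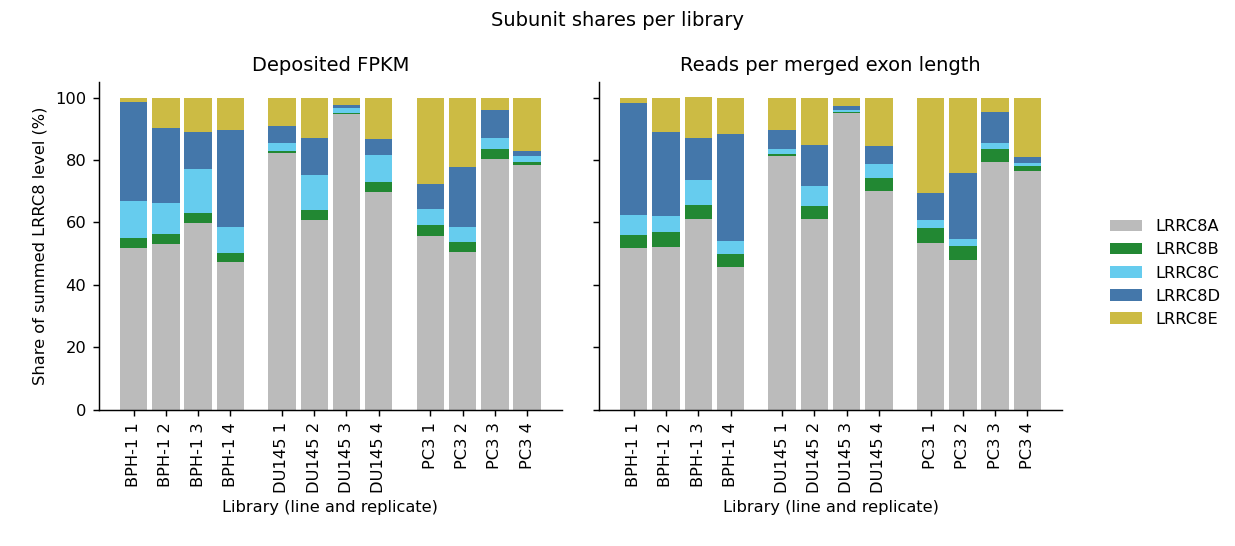
Share of each LRRC8 gene in the summed LRRC8 level (%) of each library, from the deposited FPKM at the left and from recovered reads per merged exon length at the right. LRRC8A is the largest part of every bar. LRRC8D is the second largest in BPH-1 replicates 1, 2 and 4, and with merged exons also in replicate 3. The LRRC8C part is smaller with merged exons.

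Shares between genes also depend on the length by which reads are divided. The deposited values divide by the sum of all distinct exons, which was 1.89 times the merged exon length for LRRC8A, 2.56 times for LRRC8B, 2.14 times for LRRC8D and 2.17 times for LRRC8E, but 1.02 times for LRRC8C. With merged exons the mean LRRC8C share was 5.94% in BPH-1, 3.26% in DU145 and 2.03% in PC3, and the LRRC8D share 27.6%, 6.59% and 10.3%. The LRRC8A share was then 52.7%, 76.8% and 64.4%, and its libraries in BPH-1 and DU145 overlapped (exact p = 0.0571).

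The genes around each locus were examined as well. Of 6 tested protein-coding genes that start within 500000 bases of the chromosome 1 cluster, 4 (GBP1, GBP4, GBP5 and GBP6) passed the filter on low values only through BPH-1 in both comparisons, which leaves little room for a difference other than lower in the PCa lines, and no count over the 6 is read. The other 2 were ZNF326 and GBP2. ZNF326, the next protein-coding gene after LRRC8D, had a mean FPKM of 11.1 in BPH-1, 1.13 in DU145 and 1.38 in PC3 (log2 fold change -2.58 and -2.38, limma adjusted p = 2.68e-05 and 8.23e-06), where 32.4% and 40.4% of all genes were called lower. GBP2 had a mean of 2.57, 0.835 and 1.04 and was not called in DU145 (-0.86, adjusted p = 0.0526) or PC3 (-0.68, adjusted p = 0.0964). With the stricter filter, which leaves these 2, both were called lower in DU145 and 1 in PC3, beside 29.9% and 36.8% of all genes. GBP genes encode interferon-induced guanylate-binding proteins and lie on the other side: GBP6, the nearest, had a mean of 1.57 FPKM in BPH-1, 0.00542 in DU145 and 0 in PC3, and GBP1 a mean of 11.8, 0.154 and 0.0146. The GC content of the 6 genes was 36.1% to 44.4%. Near LRRC8E, with a GC content of 46.1% to 73.1%, 22 of 26 tested genes were higher and 0 lower in PC3 than in BPH-1, and 16 of 28 higher and 1 lower in DU145, beside 27.1% and 30.3% of all genes called higher. Of these genes 4 and 5 passed the filter only through the PCa line, and among the 22 that passed it in both lines 19 were higher and 0 lower in PC3, and 11 higher and 1 lower in DU145. With the GC trend divided out, 18 of the 26 were higher and 0 lower in PC3 (31% and 33% of all genes). In DU145, 12 of the 28 were then higher and 3 lower (32.7% and 30.5%). The adjacent PRR36, tested only through the PCa lines, had a mean of 0.153 FPKM in BPH-1, 3.37 in DU145 and 2.88 in PC3, and MAP2K7, a kinase of the JNK pathway, 2.72, 3.93 and 5.56. Near LRRC8A, 9 of 22 were higher and 0 lower in DU145 (8 of the 21 that passed the filter in both lines), and 4 of 21 higher and 7 lower in PC3. The balance in PC3 moved with the scaling, to 2 higher and 13 lower with the GC trend divided out (31% and 33% of all genes). It was 2 and 10 after rescaling to the same sum (20.9% and 48.3%), and 6 and 4 with upper-quartile scaling (32.6% and 35.5%). Its neighbour SPOUT1 had a mean of 9.12 FPKM in BPH-1, 10.9 in DU145 and 7.74 in PC3, and PHYHD1, tested only through DU145, 0.0299, 1.83 and 0.00575.

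**Figure D5:**
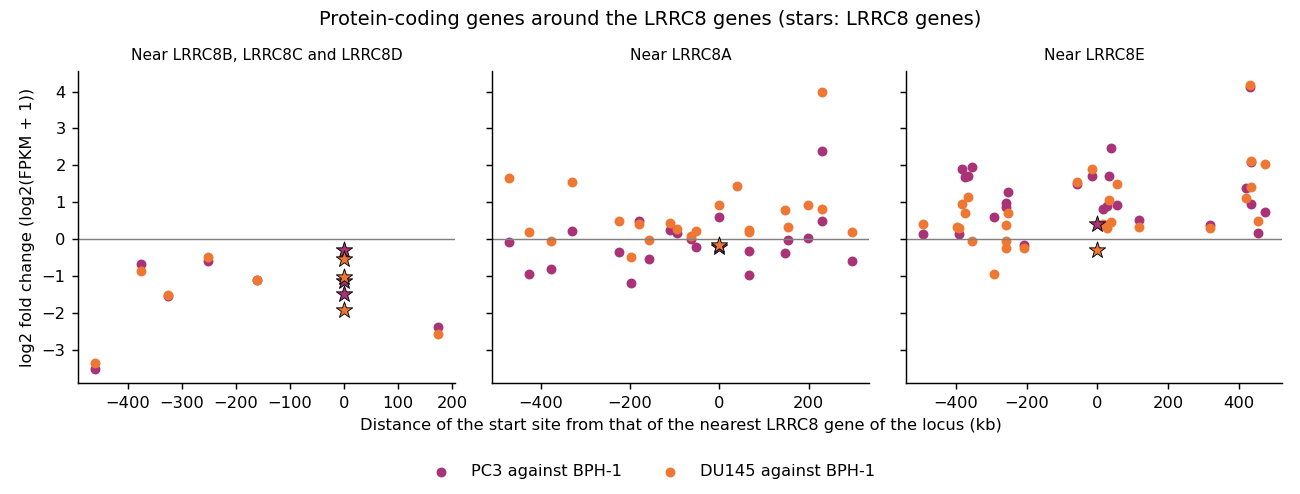
Log2 fold change against BPH-1 (y axis) of tested protein-coding genes by the distance of their start site from that of the nearest LRRC8 gene of the locus (x axis, kb); stars are the LRRC8 genes at 0. Of the 6 genes around LRRC8B, LRRC8C and LRRC8D, 4 were tested only because of their BPH-1 level, and around LRRC8E 4 (PC3) and 5 (DU145) were tested only because of their PCa level.

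Other genes of the swelling response were followed in a list of 20 transporters, channels and regulators of cell volume. Of 18 tested, 3 were higher and 6 lower in PC3 against BPH-1 (median log2 fold change -0.15, against -0.13 over all genes), and of 19 tested, 6 were higher and 7 lower in DU145 (-0.26, against -0.03). Over all genes 27.1% were called higher and 40.4% lower in PC3, and 30.3% and 32.4% in DU145. Of the genes that passed the filter in both lines, 3 of 15 were higher and 4 lower in PC3, and 5 of 17 higher and 7 lower in DU145. With the GC trend divided out the list had 5 higher and 7 lower in PC3 (31% and 33% of all genes), and 6 and 9 in DU145 (32.7% and 30.5%). SLC12A7, a potassium-chloride cotransporter used in volume decrease, rose in both PCa lines, from 2.59 ± 0.178 (SD, n = 4) FPKM in BPH-1 to 9.90 ± 1.84 in DU145 and 16.7 ± 0.811 in PC3 (limma adjusted p = 2.6e-05 and 1e-07). SLC12A2, the sodium-potassium-chloride cotransporter of volume increase, fell from 5.38 ± 0.608 to 0.571 ± 0.410 and 1.27 ± 0.556 (adjusted p = 1.81e-05 and 6.86e-05). The swelling-activated potassium channel gene KCNK5 went apart between the PCa lines, with 3.49 ± 0.178 FPKM in BPH-1, 11.4 ± 2.76 in DU145 and 0 reads in every PC3 library (adjusted p = 9.07e-05 and 4.24e-08), so that it was tested in PC3 only through BPH-1. AKR1B1, the aldose reductase that makes sorbitol, did likewise, with 8.26 ± 1.43, 27.9 ± 6.46 and 0.0969 ± 0.0267 FPKM (adjusted p = 7.23e-05 and 1e-07), and it too passed the filter in PC3 only through BPH-1. SLC5A3, an inositol transporter with a GC content of 38.3%, was 9.80 ± 0.586 FPKM in BPH-1, 1.03 ± 0.775 in DU145 and 8.60 ± 4.50 in PC3 (DU145 against BPH-1 -2.49, adjusted p = 2.88e-05). With the GC trend divided out SLC5A3 was -1.23 in DU145 and became called higher in PC3 (1.17, adjusted p = 5.83e-05), and SLC12A2 moved from -2.06 to -1.26 in DU145 and from -1.52 to -0.66 in PC3. Between PC3 and DU145, 4 of 19 were higher and 5 lower in PC3 (48.3% of all genes were called, 28.3% lower), but KCNK5, AKR1B1 and SLC6A12, a transporter of betaine, were tested only through DU145, and of the 15 that passed the filter in both lines 4 were higher and 2 lower. With the GC trend divided out, 14 of 19 were called, beside 58.2% of all genes.

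Genes for what VRAC carries were split as well. In this list of 10 genes of taurine synthesis and uptake, cyclic dinucleotide signalling and copper or platinum transport, 4 of 9 tested were higher and 4 lower in PC3 against BPH-1 (27.1% and 40.4% of all genes), and 3 were higher and 1 lower in DU145 (30.3% and 32.4%). The 1 lower there, ATP7A, passed the filter in that comparison only through BPH-1. In either comparison 4 were higher and 1 lower with the GC trend divided out, beside 31% and 33% of all genes in PC3 and 32.7% and 30.5% in DU145. The dioxygenase gene ADO, which makes hypotaurine from cysteamine, was 13.0 ± 1.26 (SD, n = 4) FPKM in BPH-1, 13.1 ± 3.67 in DU145 and 42.7 ± 10.1 in PC3. CGAS, the synthase of cyclic GMP-AMP, was 10.4 ± 0.570, 11.6 ± 0.914 and 5.35 ± 0.975 FPKM, and ENPP1, which degrades that dinucleotide, 0.275 ± 0.0491, 0.610 ± 0.461 and 1.86 ± 0.813. The copper importer gene SLC31A1 was 15.5 ± 1.59, 34.7 ± 5.24 and 11.1 ± 1.02 FPKM. The calls in PC3 against BPH-1 ended with the GC trend divided out for CGAS (-0.86 to -0.26, limma adjusted p = 0.292) and SLC31A1 (-0.45 to 0.10, adjusted p = 0.656). In DU145 CGAS (0.86, adjusted p = 0.0136) and ENPP1 (0.50, adjusted p = 0.00258) then became called higher, and SLC31A1 moved from 1.11 to 1.75. The copper pump genes ATP7A and ATP7B were called in opposite directions, with ATP7A lower in DU145 (-1.37, limma adjusted p = 7.19e-06) and PC3 (-0.94, adjusted p = 0.00098) and ATP7B higher (0.57, adjusted p = 0.000262, and 0.69, adjusted p = 0.0012). With the GC trend divided out ATP7A was -0.71 in DU145, and its call in PC3 ended (-0.18, adjusted p = 0.237).

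Of 12 other anion channel genes, which include earlier candidates for VRAC, 6 of 10 tested were higher and 2 lower in PC3 against BPH-1 (27.1% and 40.4% of all genes), and 2 were higher and 4 lower in DU145 (30.3% and 32.4%). Among the lower genes in each comparison, ABCB1 passed the filter only through BPH-1. With the GC trend divided out there were 7 higher and 2 lower in PC3 (31% and 33% of all genes), and 4 and 4 in DU145 (32.7% and 30.5%). ANO1, a calcium-activated chloride channel, was 1.95 ± 0.196 (SD, n = 4) FPKM in BPH-1, 0.0979 ± 0.0165 in DU145 and 12.5 ± 0.794 in PC3. In PC3 this level per length stood beside 11.2 ± 1.30 for LRRC8A. TTYH2, of the tweety family, rose in both PCa lines, from 0.738 ± 0.216 FPKM to 2.72 ± 0.594 and 10.7 ± 1.94, while TTYH3 was 15.1 ± 1.45, 6.24 ± 1.33 and 25.1 ± 1.58. The call of TTYH3 in PC3 (0.70, limma adjusted p = 0.000234) ended with the GC trend divided out (0.15, adjusted p = 0.15). ANO6, a lipid scramblase and channel, was lower in DU145 (-1.76, limma adjusted p = 0.0128) and PC3 (-1.65, adjusted p = 0.00139), but with the GC trend divided out its call in DU145 was lost (-0.96, adjusted p = 0.0518) and its difference in PC3 was -0.83. BEST1 rose (1.37, adjusted p = 1.69e-05, and 0.40, adjusted p = 0.00893). Of the pannexins, which share ancestry with the LRRC8 proteins, PANX1 was 11.3 ± 0.761, 9.24 ± 1.81 and 9.01 ± 0.955 FPKM, and called lower in PC3 (-0.31, adjusted p = 0.0314), a call lost with median-of-ratios or upper-quartile scaling and without BPH-1 replicate 3 or PC3 replicate 2. PANX2 was 1.65 ± 0.933, 6.87 ± 2.94 and 2.94 ± 1.35 and called higher in DU145 (1.57, adjusted p = 0.00214).

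Profiles over the 12 libraries were compared among 10499 or 10500 protein-coding genes with a mean FPKM of at least 1, by the root mean square (RMS) difference of log2(FPKM + 1) after centring. ELL, WDR91 and SERGEF were closest to LRRC8A (RMS difference 0.084 to 0.085), PHTF1, SS18L1 and HSPBAP1 to LRRC8B (0.075 to 0.10), and LIN54, MRS2 and MIOS to LRRC8C (0.075 to 0.089). LIN54 had an FPKM of 0.258, 1.35, 0.126 and 1.16 in DU145, with the same low replicates as LRRC8C. The closest genes to LRRC8D were STIL, LANCL1 and KNTC1 (0.35 to 0.39), and to LRRC8E ZNF264, MAP3K13 and CENPL (0.37 to 0.44). The RMS difference is not scaled to a member's own spread, so larger values for the widely spread members follow from the measure. The centred profiles of LRRC8A to LRRC8E themselves had an RMS of 0.19, 0.29, 0.59, 1.01 and 0.70. STIL, a gene of centriole duplication, had 4.37, 8.39, 3.82 and 8.63 FPKM in BPH-1, lowest in the same replicate as LRRC8D. MAP3K13, a kinase gene, had 0.566, 3.67, 2.81 and 2.67 FPKM in BPH-1, lowest in the same replicate as LRRC8E. LIN54, STIL and MAP3K13 were chosen for their likeness over these same libraries, so the shared low replicates follow from the choice. The matches to LRRC8B, LRRC8C and LRRC8D had a GC content of 39.1% to 46.8%, and those to LRRC8A of 52.6% to 59.7%. Those to LRRC8E had 42.4% to 44.5%, below the 57.5% of LRRC8E itself.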

How the data were processed

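Total RNA of BPH-1, DU145 and PC3 was sequenced in 4 libraries each. The authors deposited 1 table of normalized values whose header names no unit, and the values had the form of FPKM. Their processing notes name CASAVA 1.8, HISAT2 2.1.0, edgeR and GRCh38 (hg38), while the counting program, its use of strand and any filter are not given in the sources used here. With the sum of distinct exons in GENCODE 29 as length, 95.8% to 96.5% of values under 50 reads were whole reads within 0.02, against 50.7% to 57.7% with merged exons. This gave the reads and depths (median 15341002), where 0 columns were unassigned and 263 genes had no length. Intervals cover the spread between libraries, and counts of reads carry counting error only.

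Genes with 10 reads at the median depth in 4 libraries and 15 reads in all were tested with limma 3.58.1 (R 4.3.3, intensity trend) on log2(FPKM + 1), with only the 2 lines compared, and Benjamini-Hochberg adjustment over all genes at 0.05. Shares and ratios per library were compared with exact permutation tests, adjusted over 15 and 3 comparisons. Each library's GC trend was fitted as a spline (5 degrees of freedom, genes of 50 reads or more). In simulations of DU145 against BPH-1 (16918 genes), 48% of 2-fold and 100% of 4-fold changes were recovered with 6 unchanged genes called. With a GC trend added (16881 genes), unchanged genes called fell from 3097 to 9 when the trend was divided out. The simulation used 1 spread setting for all genes and upward changes in genes of 50 reads or more, and its trend was shared by all libraries of a line. The deposited libraries of a line differed in their GC trend, and some members spread more than most genes. These rates therefore need not hold for the members. Other software was Python 3.11.15, numpy 2.4.6, pandas 2.3.3 and matplotlib 3.10.9.

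The members and gene lists were chosen with earlier results of these data known. Named were the members, up to 3 called genes of each list and comparison with the largest change, the 3 closest profiles, the adjacent genes, overlapping genes and markers. GBP1 was named after its values were seen. Some of the markers examined are not reported here. Alternatives were other pseudocounts, filters, scalings, lengths, voom on recovered reads, a replicate block, 1 fit over 3 lines, the GC trend divided out and leaving out each library. Leaving out DU145 replicates 1 and 3 with PC3 replicate 4, or either pair of DU145 libraries, and dividing the GC trend out of shares and counts were added after seeing the data.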

Additional observations from a re-analysis of the deposited data

Results flagged for a closer look

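In 2 of 36 groups of 4 libraries, 1 library lay far from the other 3 by Dixon's test, which flags about 5% of groups by chance. LRRC8C was 3.07 FPKM in BPH-1 replicate 3, where the rest of that line gave 2.51 to 2.58. LRRC8E made up 1.44% of the summed LRRC8 level in BPH-1 replicate 1, against 9.86% to 11.1% in the others.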

How the results depend on the processing

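Dividing out the GC trend moved several results. Beside the values in the report, it gave 0.11 for LRRC8A and 0.33 for LRRC8B (called) in PC3 against DU145. So 1 member was called there, beside 58.2% of 16421 genes. The step turned the share differences of PC3 against BPH-1 to -2.99 (LRRC8A), 2.06 (LRRC8B) and 0.62 percentage points (LRRC8C). Those of DU145 turned to 0.49 (LRRC8B), 3.41 (LRRC8C) and -0.82 (LRRC8E), and the log2 ratio of partners to LRRC8A in PC3 to 0.16. The log2 fold changes of PC3 against BPH-1 became -0.55 (LRRC8A), 0.23 (LRRC8B), -0.16 (LRRC8C) and -0.92 (LRRC8D), those of DU145 -0.66 (LRRC8A), -0.10 (LRRC8B) and -0.027 (LRRC8C), and the volume list of PC3 against DU145 had 14 calls.

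LRRC8B in PC3 against BPH-1 lost its call with log2(FPKM + 0.1) (-0.74), no filter (-0.30), 1 fit over 3 lines (-0.30), median-of-ratios (-0.26) and upper-quartile scaling (-0.22) and voom (-0.91). LRRC8A there became called when libraries were rescaled to the same sum (-0.47), which moved the median of all genes from -0.13 to -0.28. LRRC8A in PC3 against DU145 turned to 0.052 with median-of-ratios and 0.023 with upper-quartile scaling. Among LRRC8B to LRRC8E alone, the LRRC8B share of PC3 was 1.81 points and the LRRC8C share of DU145 1.76 points higher than in BPH-1, and that of LRRC8E 25.9 points higher in DU145 (no overlap, exact p = 0.0286) and 33.9 in PC3 (exact p = 0.0571), adjusted p = 0.171 each. LRRC8D in PC3 against BPH-1 (-1.49) had an exact p of 0.0571. The causes were not tested.

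Without DU145 replicates 1 and 3 and PC3 replicate 4, LRRC8A was called against BPH-1 in DU145 (-0.38) and PC3 (-0.28). LRRC8B was not called in PC3 (-0.19), and LRRC8E of DU145 turned to 0.067. Against DU145, PC3 had LRRC8A at 0.10 and LRRC8C called at -0.47, 1 member, beside 57.7% of 17139 genes called. LRRC8A in PC3 against DU145 was 0.066 without DU145 replicates 3 and 4.

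With each library left out in turn, PC3 against BPH-1 ranged from -0.28 to -0.17 (LRRC8A), -0.36 to -0.19 (LRRC8B) and 0.025 to 0.82 (LRRC8E). DU145 against BPH-1 ranged from -0.27 to -0.063 (LRRC8A) and -0.67 to -0.04 (LRRC8E). PC3 against DU145 ranged from -0.15 to 0.06 (LRRC8A), 0.14 to 0.35 (LRRC8B), -0.30 to 0.067 (LRRC8C), 0.086 to 0.75 (LRRC8D) and 0.44 to 1.12 (LRRC8E). In that comparison 0 to 1 members were called, beside 41.7% to 49.1% of genes. Share differences ranged from -0.78 to 0.093 points (LRRC8B, PC3 against BPH-1) and -0.99 to 3.67 (LRRC8E, DU145 against BPH-1).

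Replicate numbers did not pair the libraries: 2 of 12 same-numbered pairs correlated above 0.1 (-0.657 to 0.514) and 0 libraries correlated best with their own number. With the replicate number as a block, LRRC8B in PC3 against BPH-1 was -0.30 (adjusted p = 0.073) and no other member changed its call. For members, shares and counts of calls, 802 other values kept their direction and their side of the threshold, or for counts stayed within 1.5 times. Beside these, 22 changed sign, 19 lost and 9 gained a call, and 5 counts moved further. The shares could hardly pass the adjusted threshold, and a block leaves their differences as they were. Part of the 802 was therefore fixed in advance. Depth limits LRRC8B most, with 8 reads in DU145 replicate 3.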
